A study of Mus musculus with 6 samples.

Results

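The genes described here are the amino acid transporters of mouse solute carrier families 1, 3, 6, 7, 36, 38 and 43. They were taken as the protein-coding rows whose symbol begins with Slc1a, Slc3a, Slc6a, Slc7a, Slc36a, Slc38a or Slc43a followed by a digit, with Slc7a11 left out. The rule found 46 genes among the 18908 rows of the count table. Of the 46, 45 are transporters or their partner chains, and Slc7a6os was matched by its name alone: it is a neighbour of Slc7a6 and not a transporter. GENCODE M21 annotates 63 mouse genes that meet the rule, and 17 of them have no row: Slc1a3, Slc1a6, Slc6a2, Slc6a5, Slc6a11, Slc6a14, Slc6a18, Slc6a20a, Slc6a21, Slc7a2, Slc7a10, Slc7a12, Slc7a13, Slc36a3, Slc38a4, Slc38a8 and Slc38a11. The listed gene with the fewest counts had 10 over the 6 libraries.

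Messenger RNA levels were compared between 3 libraries labelled control shRNA, of wild-type genotype (WT), and 3 libraries labelled VprBP1 shRNA, whose genotype is given as VprBP1 Knockdown. An shRNA is a short hairpin used to lower a chosen transcript, here that of VprBP, now named Dcaf1, which brings substrates to a cullin ubiquitin ligase. All 6 are described as mouse bone marrow-derived macrophages (BMDM), with no treatment, age or sex given. The labels name no animal or culture for any library, so the p-values below reflect only how far these libraries scatter, and that scatter may be technical.

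Several measurements of the whole series bear on every value below. Library totals lay between 16839435 and 21838875 counts, so that 3 counts, the most that a count of 0 allows, correspond to 0.144 to 0.186 CPM (counts put on the same depth for all libraries). Dcaf1 itself stood at 42.2, 43.5 and 40.7 CPM in the controls and at 35.96, 34.6 and 36.8 CPM in the VprBP libraries, a log2 difference of -0.24 (SE 0.07, adjusted p = 0.00625), and 81.0% of all tested genes differed by more. Of 15 macrophage markers, 9 have no row (Csf1r, Adgre1, Itgam, Spi1, Tyrobp, Aif1, Cd84, Ptprc and Cx3cr1), and the summed level of the others was 37.3 to 40.6 CPM in the controls and 20.2 to 21.1 CPM in the VprBP libraries. That drop lay in Cd68 (30.4, 31.7 and 32.8 CPM against 0.701, 1.19 and 1.15 CPM, log2 difference -4.95), while of the 5 tested markers Mertk, Laptm5 and Lyz2 were called higher (log2 differences 1.32, 3.61 and 1.25) and Cd14 was not called. All 8 pigment cell markers were tested, and their summed level was 21070.0 to 21450.0 CPM in the controls and 19650.0 to 20160.0 CPM in the VprBP libraries. All 8 were called, in both directions: Tyr, Sox10, Mitf, Dct and Tyrp1 were higher (log2 differences 1.92, 1.81, 1.78, 0.59 and 0.08) and Slc45a2, Pmel and Mlana lower (-1.93, -1.48 and -1.42). For both marker lists, the share called among all tested genes was 75.0% (adjusted p below 0.05). The part of either marker list in the results on transporters was not tested, and in bulk RNA fewer cells of a type and less RNA per cell cannot be told apart. Because Dcaf1 differed little, the groups are called controls and VprBP libraries after their labels only, and every direction is one between labels.

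Amino acids cross membranes through transport systems, named by substrate and by the ion that drives them. Sodium-coupled carriers such as those of systems A and ASC bring small neutral amino acids, glutamine among them, into the cell. Exchangers of system L then let glutamine out in return for leucine and other large neutral amino acids, and each of these exchangers is a light chain (an SLC7 protein) that needs a glycoprotein heavy chain (an SLC3 protein) to reach the surface. Lysosomal carriers of families 36 and 38 pass amino acids between the lysosome and the cytosol, where they are sensed by the growth kinase complex mTORC1. Family 6 carriers use sodium and chloride to take up glycine, taurine, creatine and related compounds.

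Most transporters differed between the labels, more of them downwards than upwards. A gene was called at an adjusted p below 0.05 by the quasi-likelihood F test of edgeR over 14641 genes, with Benjamini-Hochberg adjustment over all of them. Of the 46 members, 31 had enough counts to be tested and 15 did not. Among the 31, 10 were higher and 20 lower in the VprBP libraries, and Slc1a1 was not called. The 30 called members make up 96.8% of those tested, where 75.0% of all tested genes were called, 37.9% higher and 37.0% lower. Changes of at least 1 in log2 were found in 7 of the higher and 10 of the lower members. The median log2 difference was -0.59 for the tested members and -0.01 for all tested genes, and the median size regardless of sign was 1.37 and 0.69. Of the 25 members with a mean of at least 10 CPM in either group, 8 were higher and 17 lower. They are given below with the value of every library in CPM scaled by TMM factors.

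**Figure D1:**
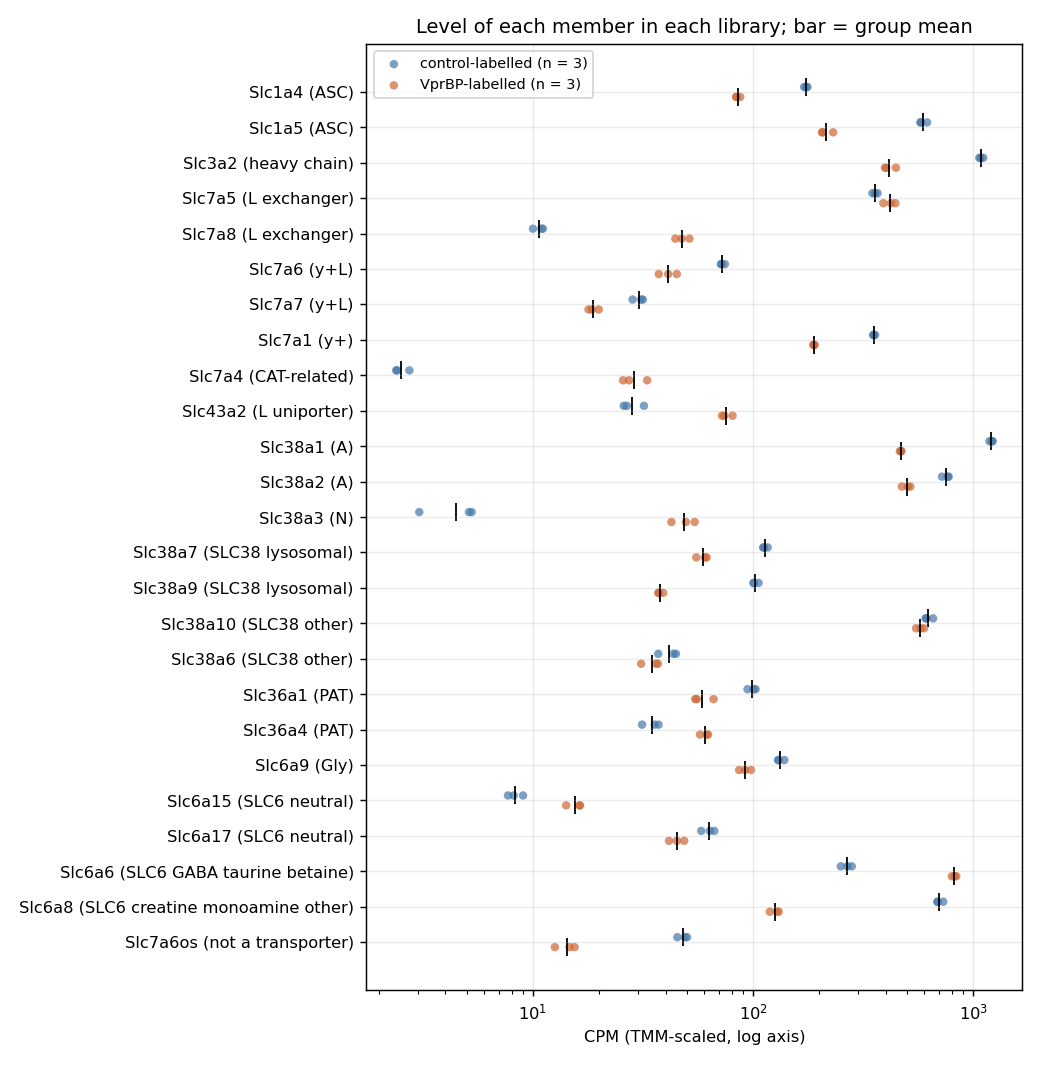
Level of the 25 members with a mean of at least 10 CPM in either group, in CPM on a log axis, 1 point per library (3 control-labelled in blue, 3 VprBP-labelled in orange) and a bar at each group mean. The transport system stands in brackets after each gene. Slc3a2, Slc1a5, Slc38a1 and Slc6a8 lie to the left in the VprBP libraries, and Slc6a6, Slc7a8, Slc38a3 and Slc7a4 to the right.

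The heavy chain of the exchangers fell while its main light chain did not. Slc3a2 (ENSMUSG00000010095.13; chromosome 19, 8706882 to 8723369, minus strand of GRCm38), the heavy chain also known as CD98hc, stood at 1065, 1079 and 1109 CPM in the controls and at 445, 402 and 397 CPM in the VprBP libraries. All 3 VprBP libraries lay far below the controls, and the gene was 2.61-fold lower (log2 difference -1.39, SE 0.05, adjusted p = 7.40e-15). Slc7a5 (ENSMUSG00000040010.10; chromosome 8, 121881150 to 121907694, minus strand), the light chain LAT1 that exchanges large neutral amino acids, stood at 348, 367 and 358 CPM in the controls and at 443, 390.2 and 423 CPM in the VprBP libraries. It was slightly higher in every VprBP library than in any control (log2 difference 0.23, SE 0.05, adjusted p = 0.000343). Slc7a8 (ENSMUSG00000022180.7; chromosome 14, 54722209 to 54781946, minus strand), the related light chain LAT2, rose 4.48-fold, from 10.001, 11.1 and 10.9 CPM to 47.3, 44.3 and 51.4 CPM (log2 difference 2.16, SE 0.09, adjusted p = 3.43e-13). The other heavy chain, Slc3a1 (rBAT), was close to the limit of detection, with 61 counts over the controls (0.670, 0.929 and 1.91 CPM) and 1 count over the VprBP libraries. The ratio of scaled counts was 63.8, with a 95% counting interval of 11.0 to 2560.0, and the gene was called lower (adjusted p = 2.78e-05). Its exons share 601 bases with those of Prepl on the opposite strand, which was itself lower (log2 difference -0.88), and without a stated strand setting reads from that stretch cannot be told apart.

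The y+L light chains, which also pair with Slc3a2 and exchange cationic for neutral amino acids, both fell. Slc7a6 (chromosome 8, 106168857 to 106198706, plus strand) stood at 71.3, 71.9 and 74.4 CPM in the controls and 41.1, 45.0 and 37.3 CPM in the VprBP libraries (log2 difference -0.82, SE 0.07, adjusted p = 7.89e-09). Slc7a7 (chromosome 14, 54369442 to 54417780, minus strand) stood at 31.5, 31.0 and 28.4 CPM against 19.9, 17.9 and 18.5 CPM (log2 difference -0.69, SE 0.09, adjusted p = 1.77e-06). Both genes were lower in 3 of 3 libraries, beside a log2 difference of -1.39 for Slc3a2. Of the exons of Slc7a7, 232 bases overlap Oxa1l on the opposite strand, which stood at 50.8 ± 1.98 and 50.4 ± 2.28 CPM (SD, n = 3 each) and was not called (adjusted p = 0.897).

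Ratios within a library do not depend on how libraries are scaled, and in these the light chains gained on the heavy chain. For ratios, counts were divided by the length of all exons of a gene and scaled to a common total per library (TPM, the counterpart of CPM per unit of length). Slc7a5 was at 0.311, 0.324 and 0.307 of the Slc3a2 level in the controls and at 0.947, 0.923 and 1.01 in the VprBP libraries. With these exon lengths, Slc7a5 was well under its heavy chain in every control and near parity with it in every VprBP library. The size of a ratio of 2 genes depends on the lengths used, while its fold change between the labels does not. Slc7a8 went from 0.00662, 0.00724 and 0.00694 to 0.0750, 0.0777 and 0.0912 of Slc3a2, an 11.7-fold difference in the ratio. Slc7a6 went from 0.0517, 0.0515 and 0.0518 to 0.0714, 0.0863 and 0.0725, a smaller step in the same direction. Together, Slc7a5, Slc7a6, Slc7a7 and Slc7a8 summed to 0.4025 ± 0.0101 of Slc3a2 in the controls and to 1.17 ± 0.0521 in the VprBP libraries. With Slc7a11, the cystine-glutamate light chain that the rule leaves out, the sum was 0.459 ± 0.0105 and 1.27 ± 0.0567 of Slc3a2. Slc7a5 exceeded Slc7a8 in all 6 libraries, at 45.3 ± 1.47 times its level in the controls and 11.9 ± 0.754 times in the VprBP libraries (mean ± SD, n = 3 each). Transcript ratios are given here, and protein was not measured.

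**Figure D2:**
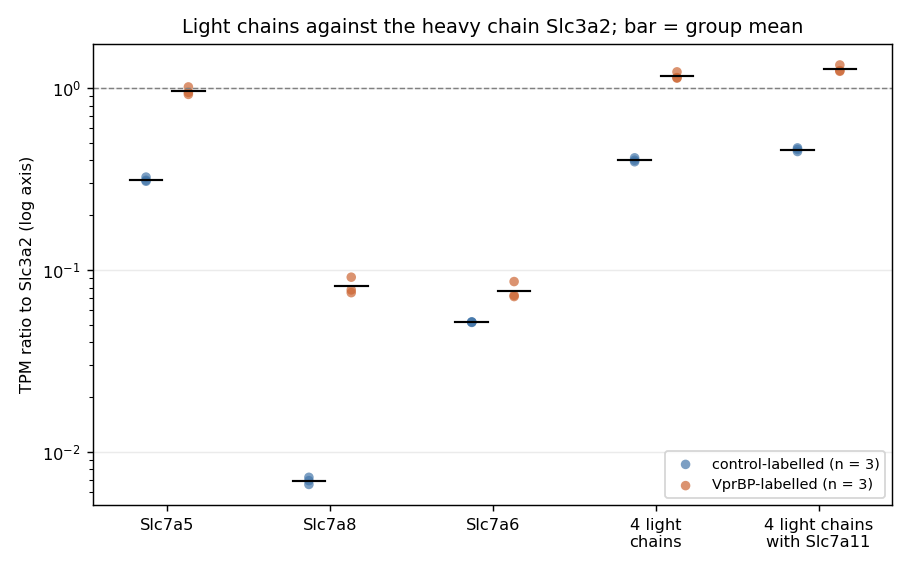
TPM of light chains divided by the TPM of the heavy chain Slc3a2, on a log axis, 1 point per library (3 control-labelled in blue, 3 VprBP-labelled in orange) with a bar at the group mean, and a dashed line where both are equal. The last 2 columns sum Slc7a5, Slc7a6, Slc7a7 and Slc7a8, without and with Slc7a11. The summed ratio is 0.4025 in the controls and 1.17 in the VprBP libraries. Where a ratio lies against the dashed line depends on the exon lengths used.

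In all, 10 ratios between members of a system or between a light chain and Slc3a2 were compared, by exact two-sided permutation tests of the log2 ratio. With 3 libraries against 3 the smallest p is 0.1, so none could pass a threshold of 0.05. For 9 of the 10 pairs the groups did not overlap, and each of these had an exact p = 0.1 (0.111 adjusted over the pairs). Among all tested genes 75.0% were called, and the share of non-overlapping ratios among other pairs of genes was not computed. The count is therefore not a trait of these pairs. The exception was Slc7a6 to Slc7a7, at 1.64, 1.68 and 1.90 in the controls and 1.501, 1.83 and 1.46 in the VprBP libraries (exact p = 0.3, adjusted 0.3). The pairs Slc1a1 with Slc1a3 and Slc7a1 with Slc7a2 gave no ratio, since Slc1a3 and Slc7a2 have no row.

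Large neutral amino acids are also carried without a heavy chain by uniporters of family 43, and this pair moved in opposite directions. Slc43a2 (LAT4; chromosome 11, 75531694 to 75577575, plus strand) rose 2.67-fold, from 31.9, 25.8 and 26.7 CPM in the controls to 80.6, 73.9 and 72.2 CPM in the VprBP libraries (log2 difference 1.42, SE 0.08, adjusted p = 2.16e-11). Slc43a1 (LAT3; chromosome 2, 84838850 to 84863594, plus strand) fell 2.63-fold, from 9.24, 8.43 and 7.82 to 2.86, 3.40 and 3.44 CPM (log2 difference -1.39, SE 0.19, adjusted p = 2.54e-06). The ratio of Slc43a1 to Slc43a2 was 0.509, 0.573 and 0.515 in the controls and 0.0623, 0.0808 and 0.0837 in the VprBP libraries. Exons of Slc43a2 share 922 bases with the antisense gene Gm45606, which stood at 0.785 ± 0.731 and 2.42 ± 0.407 CPM. The third gene of the family, Slc43a3, carries nucleobases and was under 1 CPM in every library (0.239, 0.372 and 0.0597 against 0.647, 0.648 and 0.626 CPM). Its call (adjusted p = 0.0377) was lost with no filter on low counts (0.108), with DESeq2 (0.132) and on leaving out any library but control 2 (0.0806 to 0.18).

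System ASC, the sodium-dependent exchangers of alanine, serine and cysteine, fell. Slc1a5 (ENSMUSG00000001918.17; chromosome 7, 16781340 to 16798274, plus strand), also known as ASCT2 and a route for glutamine, stood at 577, 576 and 616 CPM in the controls and at 231, 205 and 207 CPM in the VprBP libraries. It was 2.75-fold lower, with all VprBP libraries below all controls (log2 difference -1.46, SE 0.05, adjusted p = 1.41e-14). Slc1a4 (ASCT1; chromosome 11, 20302180 to 20332713, minus strand) fell less, from 174, 176 and 170.4 to 87.4, 83.8 and 83.9 CPM (log2 difference -1.03, SE 0.05, adjusted p = 1.40e-12). The ratio of Slc1a4 to Slc1a5 was higher in every VprBP library, going from 0.320, 0.326 and 0.294 to 0.402, 0.434 and 0.430.

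Promoters of the members were searched for TGATGNAA on both strands, the letters of the element at which ATF4 and C/EBP factors act in the response to amino acid shortage. Windows of 250 bases before to 50 after the start site came from RefSeq (GRCm38.p6), and 33 of the 46 members had at least 1. The letters occur in windows of 2 of these 33 members, 6.06%, and in 4.51% of all 27025 genes of that table. The 2 are Slc1a4 and Slc7a7, both called lower, and their matches are shown because these are the only ones among the members. Each is printed 5′ to 3′ on the strand of the gene with the match in capitals, and the match in Slc1a4 lies on the other strand and so reads TTGCATCA.
Slc1a4, chr11:20332694-20332733, minus strand, match from 4 bases before the start site: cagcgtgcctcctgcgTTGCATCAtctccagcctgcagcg
Slc7a7, chr14:54417922-54417961, minus strand, match from 1 base before one of its start sites: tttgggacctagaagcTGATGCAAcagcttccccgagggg
Slc7a7, chr14:54418062-54418101, minus strand, match from 141 bases before the same start site: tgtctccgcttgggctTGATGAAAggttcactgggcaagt
The share among members lies near that of all genes, and a match is a description of the letters only. Of the members with a window, 16 were called lower and 3 higher, so the remaining 14 lower members with a window hold no match in it. The lower members Slc1a5, Slc38a1, Slc6a8 and Slc7a3 and most of the higher members had no window and were not searched. Sequence outside the windows was not searched for any member.

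System A, the sodium-coupled uptake of small neutral amino acids, also fell. Slc38a1 (SNAT1; chromosome 15, 96571418 to 96642913, minus strand) stood at 1224, 1216 and 1184 CPM in the controls and 471, 469.8 and 464 CPM in the VprBP libraries, 2.58-fold lower (log2 difference -1.37, SE 0.04, adjusted p = 5.82e-16). Slc38a2 (SNAT2; chromosome 15, 96687392 to 96699730, minus strand), the member best known for its induction by amino acid shortage, fell 1.51-fold, from 765, 773 and 721 to 474, 518 and 505 CPM (log2 difference -0.59, SE 0.04, adjusted p = 7.71e-10). The ratio of Slc38a1 to Slc38a2 was lower in every VprBP library, going from 0.820, 0.806 and 0.842 to 0.510, 0.466 and 0.471.

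System N, whose carriers couple glutamine, asparagine and histidine to sodium uptake and proton release, moved the other way. Slc38a3 (SNAT3; chromosome 9, 107650634 to 107669530, minus strand) rose 10.8-fold, from 5.12, 5.26 and 3.04 CPM to 54.2, 42.6 and 49.5 CPM (log2 difference 3.43, SE 0.15, adjusted p = 2.85e-13). No VprBP library came near the control range. Slc38a5, the other member, was too low to be tested (0, 0.124 and 0.239 CPM in the controls, 0.162, 0.216 and 0.313 CPM in the VprBP libraries).

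The lysosomal members of family 38 fell. Slc38a9 (chromosome 13, 112660751 to 112738749, plus strand), an arginine-regulated carrier that signals to mTORC1, was 2.71-fold lower (106, 101 and 100.5 against 39.0, 37.1 and 37.3 CPM, log2 difference -1.44, SE 0.06, adjusted p = 1.98e-13). Slc38a7 (chromosome 8, 95835920 to 95853539, minus strand), which carries glutamine and asparagine out of the lysosome, was 1.92-fold lower (116, 112 and 111 against 60.5, 55.2 and 61.5 CPM, log2 difference -0.94, SE 0.06, adjusted p = 6.55e-11). The ratio of Slc38a7 to Slc38a9 was 4.46 ± 0.0223 in the controls and 6.30 ± 0.328 in the VprBP libraries. Of the less studied members, Slc38a10 (chromosome 11, 120103960 to 120151346, minus strand) stood at 608, 612 and 657 CPM in the controls and at 598, 549.8 and 577 CPM in the VprBP libraries. Slc38a6 (chromosome 12, 73286779 to 73354049, plus strand) stood at 43.4, 44.6 and 37.1 CPM against 31.0, 36.9 and 36.2 CPM. Their groups lay close together without overlap, and both were called lower (log2 differences -0.12 and -0.27, adjusted p = 0.0185 and 0.0118). Neither call held with scaling by library size only, where the differences were -0.00618 and -0.149. On leaving out libraries, the Slc38a10 call was lost without control 3, VprBP 2 or VprBP 3 (adjusted p = 0.0635, 0.122 and 0.0581), and the Slc38a6 call without control 2 or VprBP 1 (0.0592 and 0.0798).

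The proton-coupled carriers of small amino acids, family 36, were mixed. Slc36a1 (PAT1; chromosome 11, 55204350 to 55236330, plus strand), found on lysosomes and at the plasma membrane, fell from 94.3, 103 and 100.5 to 66.1, 54.5 and 55.5 CPM (log2 difference -0.76, SE 0.07, adjusted p = 2.21e-08). Slc36a4 (PAT4; chromosome 9, 15709738 to 15743361, plus strand) rose from 31.3, 35.7 and 37.2 to 61.5, 62.4 and 57.4 CPM (log2 difference 0.80, SE 0.08, adjusted p = 2.44e-08). The TPM ratio of Slc36a1 to Slc36a4 was 3.33 ± 0.181 in the controls and 1.13 ± 0.116 in the VprBP libraries. With the exon lengths used, both were nearly equal in the VprBP libraries. Slc36a2 had 12 counts over the controls, nearly all in control 1, and 90 over the others (0.526, 0 and 0.0597 against 2.05, 1.35 and 1.41 CPM). It was called higher (log2 difference 2.86, SE 0.68, adjusted p = 0.000992), and without control 1 the log2 difference was 5.42.

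Carriers of cationic amino acids that need no heavy chain (system y+) fell. Slc7a1 (CAT1; chromosome 5, 148327410 to 148399904, minus strand), the main route of arginine and lysine into many cells, stood at 351, 358 and 352 CPM in the controls and 188, 190.4 and 188 CPM in the VprBP libraries (log2 difference -0.91, SE 0.04, adjusted p = 8.12e-13). Slc7a3 (CAT3; chromosome X, 101079210 to 101086020, minus strand) fell 14.9-fold at a far lower level, from 4.64, 4.58 and 5.37 to 0.0539, 0.540 and 0.365 CPM (log2 difference -3.90, SE 0.43, adjusted p = 2.17e-07). The gene Slc7a4 (chromosome 16, 17572018 to 17583214, minus strand), a relative of these by sequence whose substrate is not settled, rose 11.4-fold, from 2.39, 2.42 and 2.75 to 33.0, 25.6 and 27.3 CPM (log2 difference 3.51, SE 0.15, adjusted p = 2.45e-13). Its exons share 554 bases with P2rx6 on the opposite strand, which stood at 0.253 ± 0.113 and 0.894 ± 0.413 CPM, far below Slc7a4 in the VprBP libraries. Slc7a14, a further relative, was not tested (0, 0.248 and 0.239 CPM against 0.270, 0.108 and 0.261 CPM).

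In family 6, the taurine and creatine carriers changed in opposite directions by large factors. Slc6a6 (ENSMUSG00000030096.8; chromosome 6, 91684053 to 91759066, plus strand), which takes up taurine, rose 3.08-fold, from 280.5, 250.2 and 268 CPM in the controls to 837, 823 and 799 CPM in the VprBP libraries (log2 difference 1.62, SE 0.05, adjusted p = 9.41e-16). Slc6a8 (ENSMUSG00000019558.14; chromosome X, 73673150 to 73682502, plus strand), which takes up creatine, fell 5.57-fold, from 687, 688 and 730.0 to 131, 119 and 128 CPM (log2 difference -2.48, SE 0.05, adjusted p = 5.79e-18). Slc6a6 was thus the lower of this pair in every control and the higher in every VprBP library, at 81.4 ± 4.54 against 348 ± 14.3 TPM in the controls and 331 ± 8.93 against 82.7 ± 4.47 TPM in the VprBP libraries. The glycine carrier Slc6a9 (GlyT1; chromosome 4, 117834506 to 117875198, plus strand) fell from 131, 129.7 and 139 to 97.8, 86.4 and 91.9 CPM (log2 difference -0.53, SE 0.06, adjusted p = 1.20e-07). Its exons share 1429 bases with Ccdc24 and 46 with B4galt2, both on the opposite strand and both under 10 CPM in mean. Of the neutral amino acid carriers, Slc6a15 (B0AT2; chromosome 10, 103367783 to 103419377, plus strand) rose from 7.70, 8.18 and 9.01 to 16.3, 14.2 and 16.3 CPM (log2 difference 0.91, SE 0.13, adjusted p = 5.08e-06). Slc6a17 (NTT4; chromosome 3, 107467543 to 107518018, minus strand), known from synaptic vesicles, fell from 66.6, 58.1 and 63.6 to 48.6, 41.5 and 45.0 CPM (log2 difference -0.48, SE 0.07, adjusted p = 1.30e-05).

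**Figure D3:**
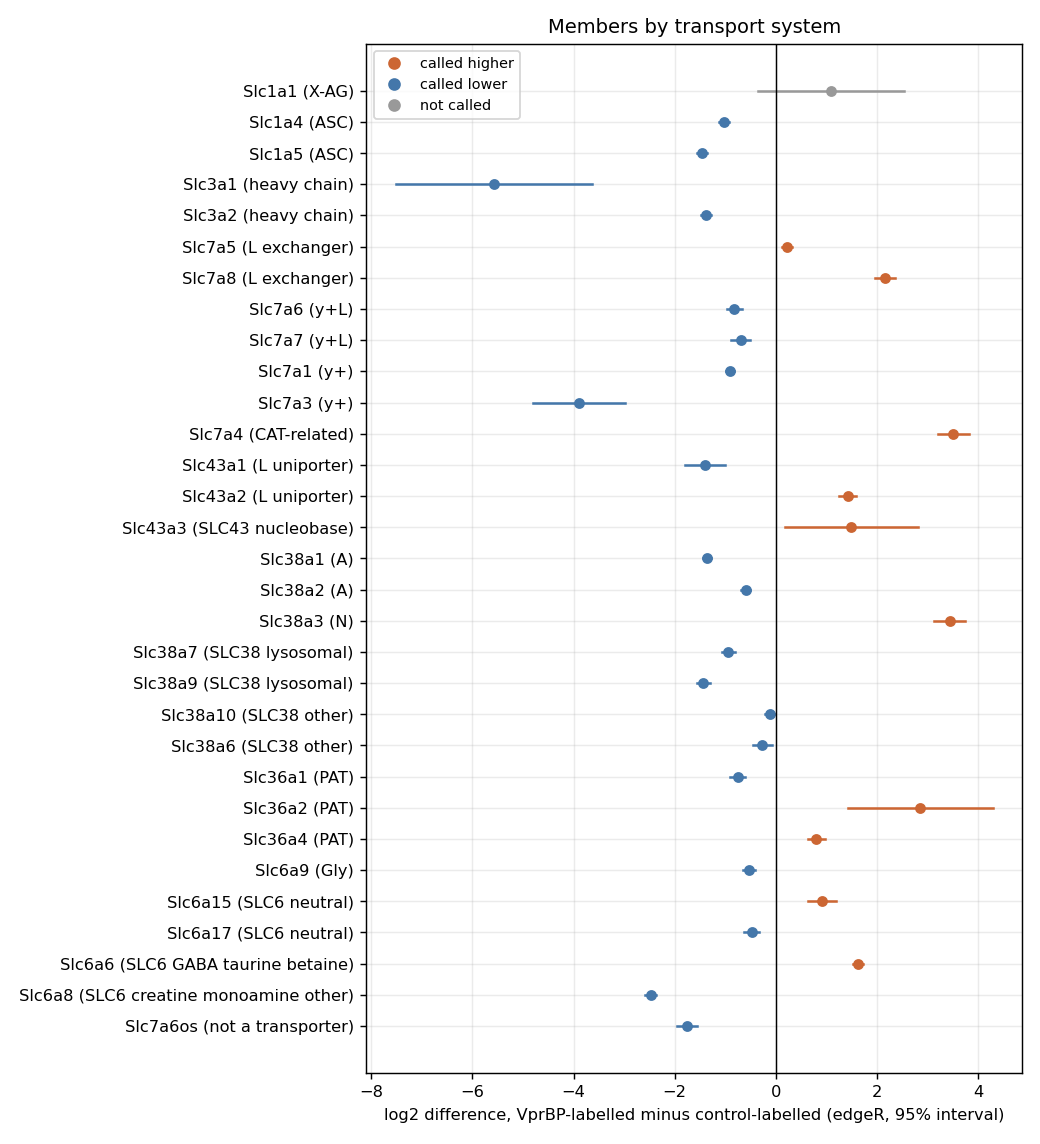
Log2 difference of each of the 31 tested members (VprBP-labelled minus control-labelled, edgeR, 3 libraries per group) with its 95% interval, ordered by transport system. Members called higher are orange, those called lower blue and Slc1a1 grey. Points run from Slc3a1 at -5.57 to Slc7a4 at 3.51, and the widest intervals belong to members with few counts.

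Most members of the remaining systems were barely detected. The high-affinity glutamate carriers (system X-AG) had 3 rows: Slc1a1 was tested and not called (0.766, 0.0619 and 0.119 CPM in the controls and 0.863, 0.432 and 0.886 CPM in the VprBP libraries, adjusted p = 0.158), and Slc1a2 and Slc1a7 were not tested. The Slc1a1 values overlapped between groups because of control 1, and without that library the log2 difference was 2.90 and called (adjusted p = 0.00684). Exons of Slc1a1 share 2631 bases with 4430402I18Rik on the opposite strand, which was called higher. Slc1a7 stood at 0.814, 0.743 and 0.418 CPM in the controls and 0.108, 0.216 and 0 CPM in the VprBP libraries. The 15 members not tested were all below 1 CPM in every library, among them Slc1a2, Slc1a7, Slc6a3, Slc6a4, Slc6a7, Slc6a12, Slc6a13, Slc6a16, Slc6a19, Slc6a20b, Slc7a9, Slc7a14, Slc7a15 and Slc38a5. The GABA carrier Slc6a13 and the neutral amino acid carrier Slc6a19 had 0 counts in the controls and 22 and 13 counts in the VprBP libraries. In the VprBP libraries Slc6a13 stood at 0.755, 0.378 and 0.052 CPM and Slc6a19 at 0.162, 0.054 and 0.469 CPM. Each gene thus had a VprBP library below the floor of 3 counts, and no fold is given. Slc7a6os, the gene matched by name, stood at 45.3, 49.0 and 50.1 CPM against 14.7, 15.4 and 12.6 CPM (log2 difference -1.76, SE 0.09, adjusted p = 5.58e-12).

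Per length, the order of the members changed between the labels. An order between genes depends on the length used, here that of all exons. Slc38a1 had the highest mean CPM of the members in the controls (1208) but 17.2 kb of exons, where Slc3a2 had 3.53 kb. In the controls the order began with Slc3a2 (794 ± 21.7 TPM), Slc1a5 (365 ± 16.5), Slc6a8 (348 ± 14.3), Slc38a10 (252 ± 12.6), Slc7a5 (249.5 ± 7.37), Slc38a2 (220.2 ± 7.06) and Slc38a1 (181 ± 2.05; mean ± SD, n = 3). Within that order the means of Slc1a5 and Slc6a8, and those of Slc38a10 and Slc7a5, lay within 1 SD or little more of each other. In the VprBP libraries it began with Slc3a2 (402 ± 27.7 TPM), Slc7a5 (386 ± 26.7), Slc6a6 (331 ± 8.93), Slc38a10 (306 ± 14.6), Slc38a2 (193 ± 7.55) and Slc1a5 (176 ± 12.8). There Slc3a2 and Slc7a5 lay within 1 SD of each other. Levels in TPM are not comparable with CPM across the labels without care: over 13998 genes the median log2 difference was 0.38 in TPM and -0.02 in CPM, a shift of 0.40. Differences of single members are therefore given in CPM, and TPM is used within a library.

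The make-up of the transporter pool, as the share of each system in the summed TPM of the members in a library, is free of that shift. The size of a share still depends on the same exon lengths. Heavy chains held 26.3% ± 0.203 in the controls and 16.1% ± 0.511 in the VprBP libraries (mean ± SD, n = 3 each). System ASC held 15.9% ± 0.196 in the controls and 10.02% ± 0.195 in the VprBP libraries. The carriers of creatine and monoamines, nearly all Slc6a8, held 11.5% ± 0.241 in the controls and 3.33% ± 0.0959 in the VprBP libraries. These had the 3 largest drops in share. The share of system A was also lower, at 13.3% ± 0.553 in the controls and 11.5% ± 0.742 in the VprBP libraries. Larger shares went to the system L exchangers, which held 8.44% ± 0.230 in the controls and 16.8% ± 0.592 in the VprBP libraries. The carriers of GABA, taurine and betaine, nearly all Slc6a6, held 2.70% ± 0.163 in the controls and 13.3% ± 0.386 in the VprBP libraries. System N held 0.0773% ± 0.0174 in the controls and 1.28% ± 0.112 in the VprBP libraries, and the uniporters of family 43 held 0.367% ± 0.0413 in the controls and 1.11% ± 0.0249 in the VprBP libraries. Slc38a10 and Slc38a6 together held 8.79% ± 0.196 in the controls and 12.9% ± 0.187 in the VprBP libraries, a larger share although both genes were called slightly lower in CPM. The proton-coupled carriers of family 36 held 1.97% ± 0.0816 in the controls and 2.77% ± 0.114 in the VprBP libraries. Slc6a9 held 2.21% ± 0.0524 in the controls and 2.45% ± 0.0713 in the VprBP libraries. These 2 shares were also larger although Slc6a9 was called lower in CPM (log2 difference -0.53) and the summed CPM of family 36 was lower. By contrast, the lysosomal pair Slc38a7 and Slc38a9 held 2.86% ± 0.109 in the controls and 2.27% ± 0.0907 in the VprBP libraries, and system y+ held 2.73% ± 0.0400 in the controls and 2.26% ± 0.101 in the VprBP libraries. Slc7a4 with Slc7a14 held 0.0532% ± 0.00406 in the controls and 0.947% ± 0.0924 in the VprBP libraries. The y+L exchangers were the closest between labels, at 2.14% ± 0.0434 in the controls and 2.01% ± 0.127 in the VprBP libraries, with overlapping groups. Each share rests on 3 libraries per label, for which no exact test can go below p = 0.1.

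**Figure D4:**
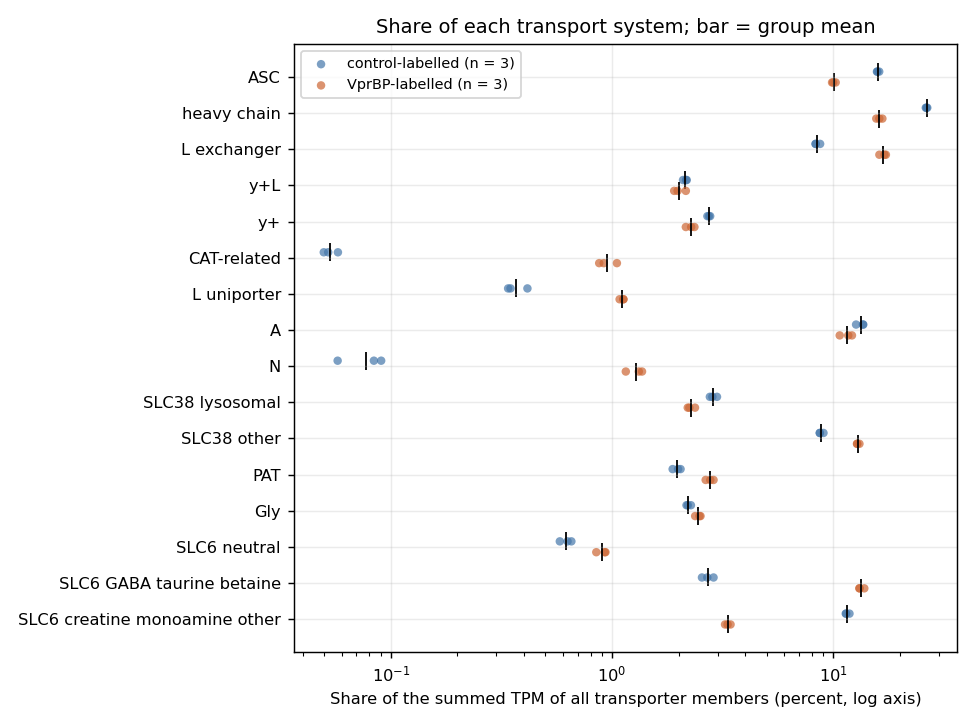
Share of each transport system in the summed TPM of all transporter members, in percent on a log axis, 1 point per library (3 control-labelled in blue, 3 VprBP-labelled in orange) and a bar at the group mean. Heavy chains fall from 26.3% to 16.1% and L exchangers go from 8.44% to 16.8%, whereas y+L overlaps between the labels.

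Amino acid carriers outside the rule, mostly of mitochondria and lysosomes, gave 16 tested genes of 17 with a row, 4 higher, 9 lower and 3 not called, with a median log2 difference of -0.45. Among all tested genes 75.0% were called, 37.9% higher and 37.0% lower. The cystine-glutamate exchanger Slc7a11 stood at 245, 236 and 238 CPM in the controls and 167, 179 and 175 CPM in the VprBP libraries (log2 difference -0.46, SE 0.05, adjusted p = 4.04e-08), beside -1.39 for its heavy chain Slc3a2. The lysosomal carriers of cationic amino acids (Pqlc2), of cystine (Ctns) and of histidine and peptides (Slc15a4) were lower, at log2 differences of -2.36, -1.30 and -0.99. So were the mitochondrial carriers of branched-chain amino acids (Slc25a44, -2.25) and of glycine (Slc25a38, -1.91). The 4 that rose were the mitochondrial aspartate-glutamate carriers Slc25a13 and Slc25a12 (1.16 and 0.45), the ornithine carrier Slc25a15 (0.99) and the sideroflexin Sfxn3 (0.998). The 3 not called were Sfxn1, Sfxn2 and the glutamate carrier Slc25a22.

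A further list covered amino acid sensing upstream of mTORC1. It also held subunits of mTORC1 itself and regulators such as Tsc1 and Tsc2, which are not amino acid sensors. All 31 genes with a row were tested: 10 were higher, 19 lower and 2 not called, with a median of -0.44. Among all tested genes 37.9% were higher and 37.0% lower. The GTPase regulators Flcn and Fnip2, the brake Tsc1, the lysosomal scaffold Lamtor3 and the leucine sensor Sesn2 fell (log2 differences -1.39, -1.65, -1.27, -1.32 and -1.10). Sesn3 and Sesn1, relatives of Sesn2, rose from 23.4 ± 1.83 to 129.7 ± 2.17 CPM and from 10.1 ± 1.08 to 22.7 ± 1.26 CPM. Seh1l, a subunit of GATOR2, and Tsc2 and Lamtor2 also rose (0.57, 0.38 and 0.57), so partners of a complex moved apart: Tsc1 fell and Tsc2 rose, and Lamtor3 fell and Lamtor2 rose. The 2 not called were Rragb, a GTPase of the lysosomal surface, and Rptor, the scaffold of mTORC1 (adjusted p = 0.0665 and 0.405).

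A last list held the kinases of the translation factor eIF2alpha, whatever their stimulus. It also held the transcription factors of the amino acid response, which induce several transporters when amino acids run short. Together they gave 10 lower and 1 higher of 11 tested, with a median of -0.85. Among all tested genes 37.0% were lower and 37.9% higher. Atf4, the central factor, stood at 663, 669 and 669.7 CPM in the controls and 198, 194 and 202 CPM in the VprBP libraries (log2 difference -1.75, SE 0.04, adjusted p = 6.47e-17). Atf3, Ddit3 and Nupr1 fell by more (-5.90, -2.94 and -3.00), and Eif2ak3, the kinase PERK, by less (-0.85). The gene that rose was Eif2ak2, the kinase PKR (1.87).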

How the data were processed

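Messenger RNA of 6 mouse libraries, 3 per label, was analysed. The authors deposited 1 table of expected counts (estimated read numbers per gene, not scaled). Partek and mm10 are named in the submitters' processing notes; aligner, annotation and strand setting: not given in the sources used here. Of the values of a library, 62.1% to 64.5% were whole within 0.001, so reads were shared among genes, and genes with close copies are uncertain. Of 18908 gene IDs, 18501 (97.8%) matched GENCODE M21, with the same coordinates. Rounded counts were then fitted by edgeR 4.0.16 under R 4.3.3 (filterByExpr, TMM, quasi-likelihood F test, group as the only term), which was tested on simulated data. CPM uses TMM factors. TPM divides counts by the union of exons. Transport systems were assigned by hand from the known roles of the genes. Summed levels and ratios were compared by exact two-sided permutation tests.

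Alternatives were DESeq2 size factors, library size only, upper quartile scaling, other filters, DESeq2 1.42.0, a replicate block, other lengths and leaving out each library. Named are the members, 1 of which is not reported here, in full from 10 CPM in either group, Dcaf1, and up to 5 called genes per direction of each related list by smallest p. The members and lists were chosen with earlier results of these data known. The counting interval of Slc3a1 and the floors cover counting error only. The edgeR standard errors and intervals also cover the scatter between libraries.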

Additional observations from a re-analysis of the deposited data

How the results depend on the processing

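Depth limits the members under 1 CPM, and 3 libraries per label limit every exact test to p = 0.1. The targeted gene Dcaf1 was no longer called with scaling by library size only (log2 difference -0.12, adjusted p = 0.137), a setting that moved the median of all genes from -0.01 to 0.10. Summed system levels reversed against TPM on the TMM scale: Slc38a10 with Slc38a6 (0.27 in TPM) gave -0.13 in summed CPM and -0.13 in TMM-scaled counts per kilobase, family 36 (0.21) gave -0.15 and -0.19, and the neutral amino acid carriers of family 6 (0.26) gave -0.22 and -0.14. The counts per kilobase were chosen after seeing the data. Counts of members called were 8 to 12 higher and 18 to 21 lower over all alternatives. Without VprBP 1, which held the only count of Slc3a1 in the VprBP libraries, the log2 difference of Slc3a1 was -7.41, an estimate against 0 counts. With the replicate block, 9 members were higher and 20 lower, Slc43a3 no longer being called (log2 difference 1.57, adjusted p = 0.0694), and the ratio of Slc7a6 to Slc7a7 differed by -0.13 with no shared sign across numbers. The correlations of same-numbered libraries (deviations from group means) were -0.03, 0.00664 and -0.04, which gave no sign of pairing in expression. They cannot show whether same-numbered libraries were prepared together.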

Other observations

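Several members lie beside another member in the genome, and neighbours did not always move together. Slc38a1 and Slc38a2 lie 44479 bases apart on chromosome 15 and were both lower, as were Slc7a6 and Slc7a6os, 2011 bases apart on chromosome 8. Slc36a1 and Slc36a2, 19273 bases apart on chromosome 11, were called lower and higher, and so were Slc43a1 and Slc43a3, 72985 bases apart on chromosome 2. In both mixed pairs the gene that was higher had few counts, with Slc36a2 at 1.60 ± 0.388 CPM and Slc43a3 at 0.640 ± 0.0126 CPM in the VprBP libraries (SD, n = 3). The pairs Slc6a12 with Slc6a13 on chromosome 6 and Slc6a3 with Slc6a19 on chromosome 13 were not tested.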
